A study of Mus musculus with 20 samples.

Results

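Angiotensin II was compared with saline in the abdominal aorta of wild-type mice, using 10 of the 20 libraries of the study. The groups were WT mice infused with Ang II at 500 ng/kg/min (5 libraries) and WT mice infused with saline (5 libraries). Both groups carry an intact Dapk1 gene, the gene that is knocked out in the mice of the other 10 libraries, which were not used here. Strain, age, sex and the length of the infusion are not given in the labels. Each library carries a number of its own, but the labels do not say whether it came from 1 mouse or from a pool, so p-values measure the spread between these libraries only. The members were all Ensembl transcripts listed for the WT libraries, 32654 of 49773 listed transcripts, of which 32618 could be assigned to 14859 genes. The value of a gene is the sum of its listed transcripts in FPKM, fragments scaled by transcript length and sequencing depth, and the 12551 genes whose average reached 1 FPKM across these 10 libraries entered the test. Values are given in the order of the library names throughout: WTNS_369, WTNS_373, WTNS_523, WTNS_547 and WTNS_550 for saline, and WTAng_II519, WTAng_II536, WTAngII568, WTAngII580 and WTAngII581 for Ang II.

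Angiotensin II is the effector peptide of the renin-angiotensin system. In the arterial wall it acts through a G protein-coupled receptor, encoded by Agtr1a and Agtr1b in mice, which raises calcium in smooth muscle cells through inositol trisphosphate, activates RhoA and NADPH oxidase, and constricts the vessel. Sustained infusion raises blood pressure and is widely used as a model of hypertension, in which the outer layer of the aorta thickens and takes up leukocytes, and the wall deposits collagen and elastin.

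The defining genes of aortic smooth muscle were among the most abundant in every library. Acta2, smooth muscle actin, was at 4092, 3139, 6307, 7554 and 5622 FPKM in the saline libraries. It was at 8371, 4966, 7344, 3731 and 7261 FPKM in the Ang II libraries. The ranges overlapped, and the level is that of a tissue rich in smooth muscle, as labelled. Dapk1, a calcium/calmodulin-regulated kinase and the gene targeted elsewhere in the study, was at 15.4, 9.48, 10.1, 12.6 and 12.9 FPKM with saline. The Ang II libraries held 9.16, 19.9, 3.96, 9.5 and 11.1 FPKM, a difference of -0.29 on the log2(FPKM + 1) scale (SE 0.32, limma adjusted p = 0.929). Dapk1 was therefore measured in all 10 libraries at levels that did not separate the groups, although only 1 of its 7 annotated transcripts was listed.

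Depth and tissue makeup varied among the libraries. The FPKM steps correspond to 59.0 to 74.4 megareads per library. Across genes, the mean correlation of log2 values was 0.911 within saline, 0.913 within Ang II and 0.911 between the groups, so libraries of a group were no more alike than libraries of different groups. In 3 libraries the mean correlation was higher with the other group than with their own: WTAngII580 (0.917 against 0.899), WTNS_547 (0.921 against 0.915) and WTNS_523 (0.906 against 0.904). Libraries WTAngII580 and WTAngII581 held transcripts of intestinal epithelium that were at 0 in the other 8, among them the defensin Defa20 (3.48 and 1.70 FPKM) and the antimicrobial lectin Reg3b (2.92 and 5.18 FPKM). Surrounding tissue contributed unequally as well: the summed level of 11 brown adipocyte markers ranged from 603 to 3313 FPKM with saline and from 155 to 2527 FPKM with Ang II. The erythroid and platelet sum ran from 2021 to 7289 FPKM with saline and from 1744 to 12124 FPKM with Ang II. It was highest in library WTAng_II536, as were the endothelial (705 FPKM), lymphatic endothelial (123 FPKM) and mast cell (81.6 FPKM) sums. In bulk tissue, fewer cells of a type and less RNA per cell cannot be told apart. Results below are also given without libraries WTAngII580 and WTAngII581, or with marker levels as covariates, where that alters them.

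**Figure D1:**
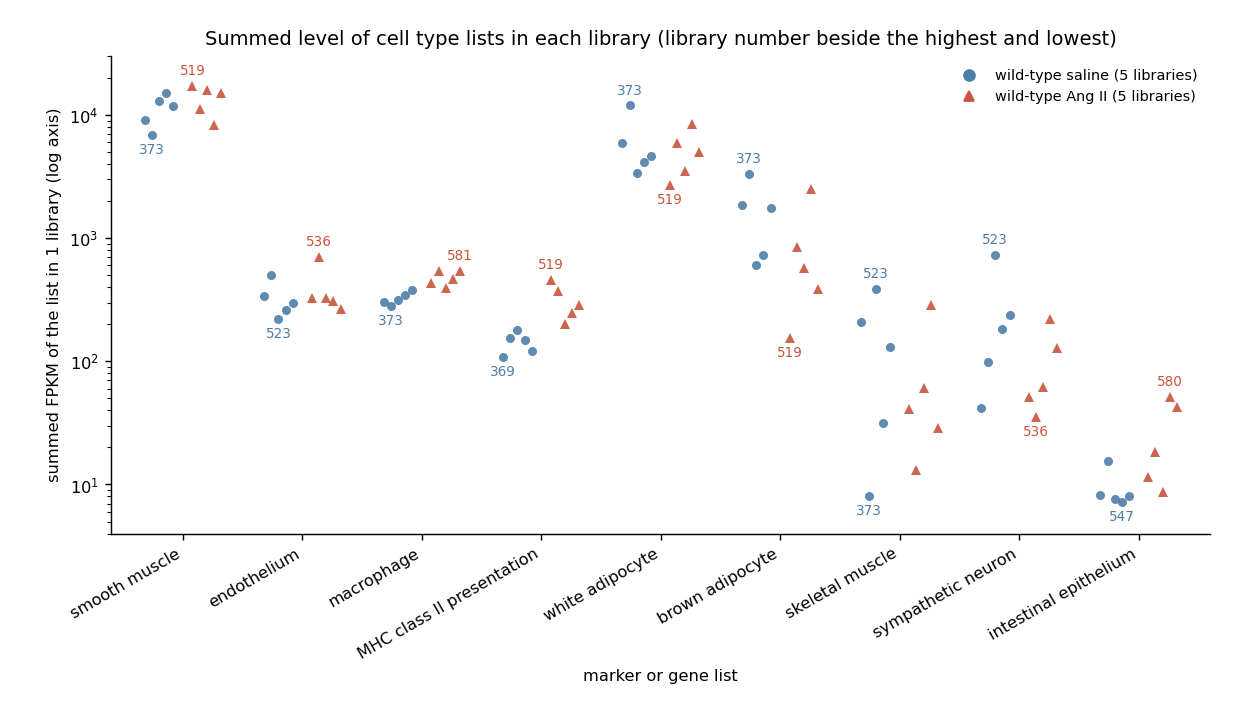
Summed FPKM of 9 cell type lists in each of the 10 libraries on a log axis, with saline as circles and Ang II as triangles; the highest and lowest library of each list carries its number. Brown adipocyte, skeletal muscle and sympathetic neuron genes spread widely within both groups, intestinal genes are highest in libraries WTAngII580 and WTAngII581 (51.1 and 42.6 FPKM), and the MHC class II and macrophage sums of all 5 Ang II libraries lie above all 5 saline libraries.

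No gene passed the limma test at an adjusted p of 0.05, in either direction, and none did in the voom fit on recovered reads. At an unadjusted p under 0.05 there were 667 genes (5.31% of those tested), 430 with a positive difference (3.43%) and 237 with a negative one (1.89%). The 10 libraries did not overlap for 84 genes that were higher with Ang II (0.669%) and 42 that were lower (0.335%). For a single value, 5 libraries against 5 cannot give an exact permutation p below 0.00794 (two-sided). Over all tested genes the differences centred on 0.01, and 6602 of them (52.6%) were positive and 5949 (47.4%) negative. Among the 84 non-overlapping higher genes, 79 were protein coding, and the differences ran from 0.17 to 2.89 with a median of 0.57. Of the 84, 13 (15.5%) belonged to the 9 joined lists of leukocyte markers and MHC class II genes. Those lists hold 67 tested genes (0.534% of those tested) and include none of the 42 lower genes. The lists were chosen with earlier results of these data known, and genes of a cell type can vary together. These shares are therefore a description and no test.

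Genes of MHC class II antigen presentation formed the group with the most uniform difference. Class II molecules are heterodimers on macrophages, dendritic cells and B cells that present peptides to CD4+ T cells. They assemble with the invariant chain Cd74, are loaded with peptide in lysosomal compartments with the help of H2-DM, and are transcribed under the coactivator Ciita, which is recruited by factors bound to the X, X2 and Y boxes of their promoters. Of the 11 genes on the list, 8 could be tested; all 8 had positive differences and an unadjusted p under 0.05, and 3 of the 8 did not overlap between groups, against 3.43% and 0.669% of all tested genes. None passed adjustment over all genes. Their median difference was 1.02 on the log2(FPKM + 1) scale, against 0.01 for all tested genes, and it lay between 0.867 and 1.2 over the 22 fits made.

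H2-Ab1, the class II beta chain of the A molecule (chr17:34257689-34269419, plus strand, GRCm38), was at 16.4, 20.04, 24.6, 21.2 and 16.2 FPKM with saline. The 5 Ang II libraries gave 72.9, 60.9, 30.7, 37.0 and 40.9 FPKM. Every Ang II library was above every saline library, with means of 19.7 ± 3.51 and 48.5 ± 17.7 (SD, n = 5 each). The difference was 1.203 (SE 0.23, unadjusted p = 0.00039 and limma adjusted p = 0.815). Cd74, the invariant chain, was at 39.8, 65.4, 71.5, 68.7 and 55.8 FPKM with saline. In the Ang II libraries Cd74 stood at 178, 165, 95.6, 97.7 and 118 FPKM, again without overlap (difference 1.09, SE 0.22). H2-DMa, a chain of the peptide exchange factor, was less abundant, at 1.76, 2.36, 3.03, 2.04 and 1.05 FPKM with saline and 6.69, 6.15, 4.21, 4.76 and 3.72 FPKM with Ang II (difference 1.01, SE 0.21). In these 3 genes the lowest Ang II library was WTAngII568 or, for H2-DMa, WTAngII581, and the highest was WTAng_II519.

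The alpha chain H2-Aa overlapped through 1 Ang II library. It was at 17.4, 32.4, 35.0, 24.4 and 18.4 FPKM with saline and at 95.5, 73.8, 30.6, 46.3 and 52.7 FPKM with Ang II (difference 1.15, SE 0.31). Library WTAngII568, at 30.6, fell within the saline range. H2-Eb1, the beta chain of the E molecule, was at 19.5, 19.2, 26.7, 14.6 and 11.8 FPKM with saline and at 71.1, 38.1, 17.7, 37.1 and 39.8 FPKM with Ang II (difference 1.03, SE 0.33). Again library WTAngII568 was the one inside the saline range. H2-DMb1 and H2-DMb2, near-identical copies whose reads may have been split between them, differed by 1.00 and 0.66 (SE 0.27 and 0.29). Ctss, the lysosomal protease that trims the invariant chain, was at 12.8 ± 2.25 FPKM with saline and 19.9 ± 3.21 FPKM with Ang II (difference 0.60, SE 0.15). H2-Ob was listed below the level tested, and Ciita and H2-Oa were not listed for the WT libraries.

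Promoter letters of the class II genes are shown because the 8 tested members had differences in one direction and class II genes are known to share promoter boxes. RefSeq (GRCm38.p6) gave windows for 8 of the 11 list members. The stretch of up to 250 bases before the start site is printed 5′ to 3′ on the gene's own strand for 3 of them, without bases of annotated exons, with matches to the Y box GATTGG, the X box (AAC, 1 base of any kind, then GATGATG) and the X2 box TGACGTCA in capitals. Both strands were searched, and these letters were chosen after the windows had been read. H2-Aa lies at chr17:34287824-34288073 (minus strand), H2-Eb1 at chr17:34305617-34305866 (plus strand, across an exon of the opposite-strand gene Gm20513) and H2-DMb2 at chr17:34144999-34145235 (plus strand).
H2-Aa: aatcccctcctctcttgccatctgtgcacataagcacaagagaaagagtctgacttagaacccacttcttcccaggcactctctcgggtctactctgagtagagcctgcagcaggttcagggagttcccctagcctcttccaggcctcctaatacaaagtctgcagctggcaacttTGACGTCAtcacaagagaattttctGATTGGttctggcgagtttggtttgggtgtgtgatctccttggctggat
H2-Eb1: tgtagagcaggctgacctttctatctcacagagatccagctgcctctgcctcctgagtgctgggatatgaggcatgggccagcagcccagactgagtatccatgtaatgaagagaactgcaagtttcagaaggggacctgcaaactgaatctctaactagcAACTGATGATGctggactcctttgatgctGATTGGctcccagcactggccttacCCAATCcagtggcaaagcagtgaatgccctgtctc
H2-DMb2: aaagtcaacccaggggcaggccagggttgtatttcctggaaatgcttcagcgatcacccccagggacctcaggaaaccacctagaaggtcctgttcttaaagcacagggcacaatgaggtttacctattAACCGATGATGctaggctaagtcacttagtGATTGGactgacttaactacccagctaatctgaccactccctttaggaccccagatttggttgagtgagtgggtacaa
In H2-Eb1 the X box begins 89 bases before the start and the Y box 60 bases before it, and a second Y box reads on the opposite strand 35 bases before the start. H2-DMb2 has the pair at 121 and 91 bases. H2-DMb1 has it at 92 and 62 bases (X box AACTGATGATG), inside its annotated first exon, so its window is not printed. H2-Aa holds a Y box at 49 bases and an X2 box at 74 bases, and no match to the X box letters. In the windows of H2-DMa, H2-Oa and H2-Ob there was a Y box and neither of the other boxes (for H2-DMa in 1 of 2 windows), and Ctss had none of the 3. Among 32851 RefSeq windows of 250 bases, the Y box letters occur in 14.6%, the X2 box letters in 1.55% and the X box letters in 0.0487% (16 windows). An X box followed by a Y box on the same strand within 40 bases occurs in 3 windows (0.00913%), those of H2-DMb1, H2-DMb2 and H2-Eb1. These are matches of letters only, and binding was not measured.

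Macrophage genes were higher as well. Of 17 general macrophage markers 16 could be tested; 15 had positive differences, 10 of them with an unadjusted p under 0.05, and 4 did not overlap (median difference 0.556, between 0.428 and 0.612 over the 22 fits). Their summed level was 302, 279, 314, 348 and 380 FPKM with saline and 432, 544, 391, 467 and 545 FPKM with Ang II, with no overlap. All 12 markers of resident perivascular macrophages were tested and had positive differences, 8 with an unadjusted p under 0.05 and 5 without overlap (median 0.528, between 0.388 and 0.727 over the fits). Their sums were 448, 355, 552, 576 and 517 FPKM with saline and 686, 695, 726, 494 and 727 FPKM with Ang II, so that library WTAngII580 stayed within the saline range. Over all tested genes, 3.43% had a positive difference at an unadjusted p under 0.05, and 0.669% were higher without overlap. No marker of either list passed adjustment. Ctss is on both the general macrophage list and the MHC class II list, and was counted in each.

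Tyrobp, the signalling adaptor of activating myeloid receptors, was at 9.68, 15.1, 12.4, 12.3 and 10.3 FPKM with saline. With Ang II it was at 19.2, 25.2, 17.1, 17.5 and 23.1 FPKM (difference 0.73, SE 0.15). Folr2, a folate receptor of resident macrophages, was at 7.06, 5.73, 7.64, 13.4 and 10.7 FPKM with saline and 17.5, 20.3, 14.3, 16.4 and 18.7 FPKM with Ang II (difference 0.94, SE 0.20). Neither gene overlapped between groups. Csf1r, the receptor that macrophages need for survival, was at 12.1, 7.54, 17, 18.7 and 14.6 FPKM with saline and 19.4, 25.9, 22, 20.4 and 27.8 FPKM with Ang II (difference 0.73, SE 0.22). Pf4, a chemokine of platelets and resident macrophages, was at 12.8, 21.8, 19.2, 20.7 and 22.5 FPKM with saline and 28.3, 65.3, 33.8, 31.3 and 35.2 FPKM with Ang II (difference 0.92, SE 0.23). Its highest value was in library WTAng_II536, which also had the highest erythroid and platelet sum, a list that includes Pf4. The scavenger receptor Cd163 differed by 0.59 (SE 0.20) and the lectin Cd209f by 0.85 (SE 0.21), both without overlap. Timd4, a phosphatidylserine receptor of long-lived resident macrophages, was lower in level, at 0.911 ± 0.413 FPKM with saline and 1.67 ± 0.143 FPKM with Ang II, and did not overlap either. The general markers Lyz2, a lysozyme (difference 0.56), and Cd68, a lysosomal glycoprotein (difference 1.06), overlapped by 1 library or more.

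The C1q chains of complement, already counted among the general macrophage markers, had differences in the same direction. C1qc, a chain of the first complement component, was at 29.9, 20.9, 27.8, 29.3 and 33.3 FPKM with saline and 41.5, 44.8, 34.1, 39.7 and 45.1 FPKM with Ang II (difference 0.53, SE 0.13). Its partner chains C1qa and C1qb differed by 0.64 and 0.31 (SE 0.18 and 0.14), with overlap. In the whole complement and coagulation list, 25 of 29 tested genes had positive differences (median 0.229). An unadjusted p under 0.05 was found for 7 of them, against 3.43% of all tested genes. The list shares C1qa, C1qb, C1qc and F13a1 with the macrophage lists. F3, tissue factor, the trigger of the extrinsic clotting pathway, which vessels express in their outer layer, was at 50.3, 62.4, 82.5, 62.2 and 63.8 FPKM with saline. Its Ang II values were 106, 109.9, 141, 82.7 and 108 FPKM (difference 0.76, SE 0.16, limma adjusted p = 0.815). Library WTAngII580, at 82.7, was just above the highest saline library, at 82.5. C3, the most abundant complement protein of plasma, had a difference of -0.19 (SE 0.20).

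Other leukocyte lists showed no such uniform direction, apart from mast cells. Of 8 tested inflammatory monocyte markers 4 had positive and 4 negative differences (median 0.157), with Ccr2, the receptor for Ccl2, at an unadjusted p under 0.05 (difference 0.53, SE 0.18). The summed level of this list, 376 to 962 FPKM with saline and 452 to 1199 FPKM with Ang II, was mostly that of Fn1, fibronectin, which cells of the vessel wall also make (means 583 and 752 FPKM). Dendritic cell markers had 4 of 6 positive differences (median 0.305), with Irf8, a transcription factor of dendritic cells and monocytes, at an unadjusted p under 0.05 (0.73, SE 0.33). B and plasma cell markers had 3 of 4 positive (median 0.146, between -0.0896 and 0.322 over the fits). Mast cell genes were low, yet 6 of 7 tested had positive differences (median 0.749, between 0.104 and 1.01 over the fits). Mcpt4, a mast cell chymase able to generate angiotensin II, was at 0.826, 1.88, 3.78, 2.69 and 3.75 FPKM with saline and 4.44, 16.1, 4.49, 6.04 and 5.5 FPKM with Ang II (difference 1.14, SE 0.37). Cpa3, a mast cell carboxypeptidase, differed by 1.15 (SE 0.41), and for both genes library WTAng_II536 stood far above the rest. Of 17 T and NK cell markers, 11 were not listed, the T cell receptor subunits Cd3d, Cd3e and Cd3g and the coreceptor Cd8a among them, and 1 reached the level tested. Negative differences were found in 4 of 6 tested neutrophil markers (median -0.473), without any at an unadjusted p under 0.05. The chemokine Ccl2, which recruits monocytes, averaged below the tested level and is named after its values were seen: it was at 0.155, 0.0587, 0, 0.132 and 0 FPKM with saline and 0.672, 0.667, 1.02, 0.843 and 0.195 FPKM with Ang II. Across chemokines, cytokines and adhesion molecules 14 of 18 tested genes had positive differences (median 0.180), and 2 had an unadjusted p under 0.05. Interferon-stimulated genes had a median difference of 0.181, with 1 of 26 at an unadjusted p under 0.05. For MHC class I genes the median was 0.251, with 3 of 19. The share of all tested genes with a positive difference at that level was 3.43%. Brown adipocyte, skeletal muscle and sympathetic sums moved the other way between the groups; their part in the leukocyte differences was not tested. With brown adipocyte markers as a covariate the medians were 0.867 for MHC class II, 0.469 for macrophages and 0.418 for resident macrophages.

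**Figure D2:**
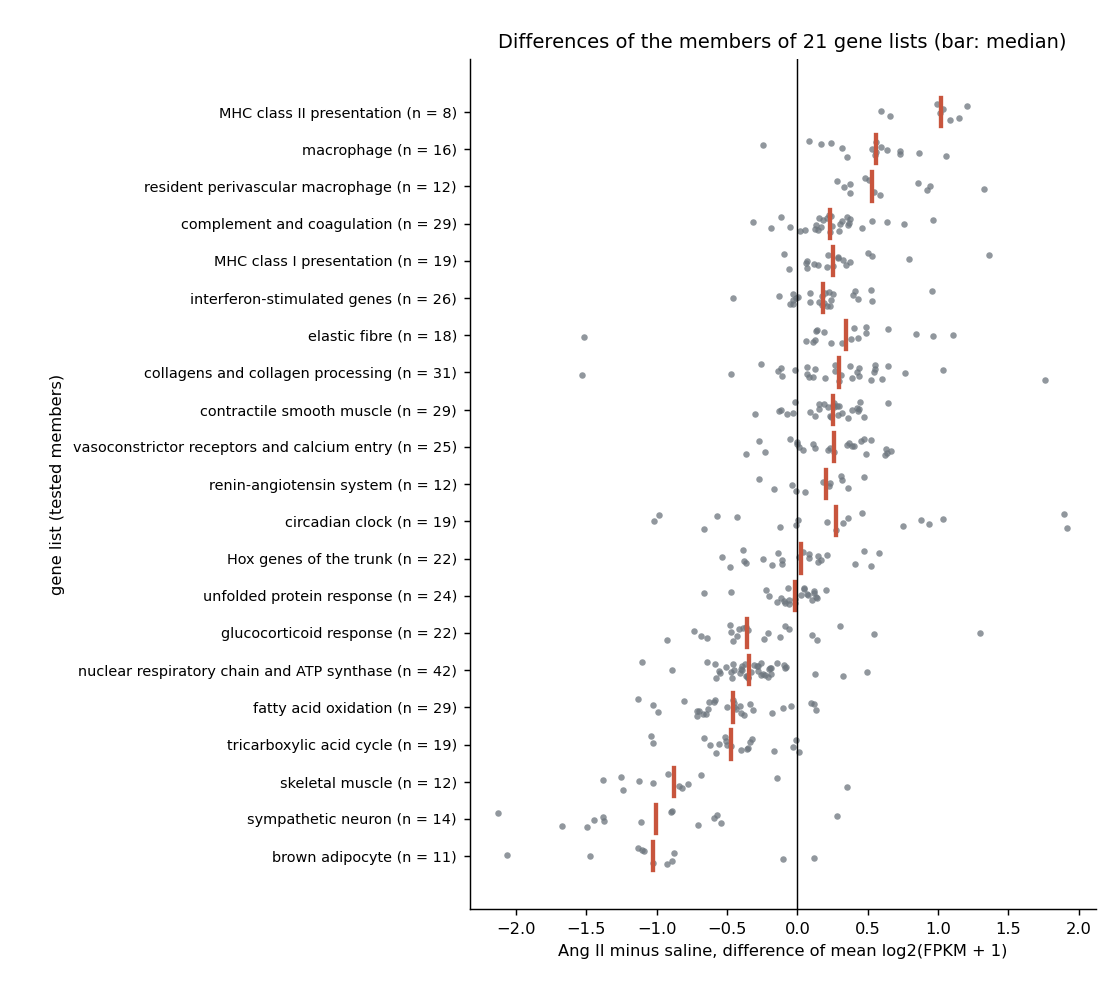
Differences of mean log2(FPKM + 1), Ang II minus saline, for each tested member of 21 gene lists (grey dots) with the list median (bar). All 8 MHC class II and all 12 resident macrophage genes lie to the right of 0, and 26 of 29 fatty acid oxidation genes lie to the left.

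A pair of single genes stood apart by the size of their difference relative to its error. Xpo4, a nuclear transport receptor of the importin beta family (chr14:57577521-57665430, minus strand), was at 0.209, 0.191, 0.475, 0.335 and 0.325 FPKM with saline. Its Ang II values were 4.02, 4.28, 4.10, 1.43 and 4.08 FPKM. The groups were far apart, with library WTAngII580 between them, and the means were 0.307 ± 0.115 and 3.58 ± 1.21 (SD, n = 5 each). The difference was 1.76 (SE 0.22), with the smallest limma adjusted p of all genes, 0.135. Xpo4 passed the threshold in 3 of 21 fits: with sample quality weights (0.00723), without library WTAngII580 (0.000882) and without libraries WTAngII580 and WTAngII581 (0.0122), and its adjusted p ranged from 0.000882 to 0.925 over all of them. Only 1 of its 9 annotated transcripts was listed, so the gene value is that of Xpo4-209. Nuclear transport receptors as a list did not follow Xpo4: the median of the 27 tested was 0.02, with 15 positive and 12 negative differences.

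Gli1, the zinc finger transcription factor that is both effector and target of Hedgehog signalling and marks a perivascular mesenchymal cell population (chr10:127329882-127341974, minus strand), was at 3.34, 2.56, 4.01, 1.83 and 3.02 FPKM with saline. In the Ang II libraries it was at 0.0554, 0.0251, 0.0873, 1.2 and 0.0783 FPKM. Libraries WTAng_II519, WTAng_II536, WTAngII568 and WTAngII581 were close to 0 and library WTAngII580 lay between the groups. The difference was -1.66 (SE 0.25, limma adjusted p = 0.284), and Gli1 passed the threshold in 3 of 21 fits, the same 3 settings as Xpo4 (adjusted p 0.03105, 0.0141 and 0.0462, with a range of 0.0141 to 0.925 over all fits). Of its 5 annotated transcripts 1 was listed, and none was listed in the Ang II tables of the knockout mice. Other Hedgehog genes were looked up after Gli1 had been seen. Ptch1, the Hedgehog receptor, was at 1.13 ± 0.981 FPKM with saline and 4.51 ± 3.24 FPKM with Ang II (difference 1.24, SE 0.52, unadjusted p = 0.0388), the direction opposite to Gli1. Gli2 differed by -0.87 (SE 0.43), Gli3 by 0.07 (SE 0.17), Hhip, a decoy receptor, by 0.55 (SE 0.33) and the transducer Smo by 0.07 (SE 0.17).

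Further genes were higher in all 5 Ang II libraries. Ctbs, a lysosomal chitobiase that degrades glycoproteins, was at 1.92, 1.13, 2.37, 2.13 and 2.97 FPKM with saline and 5.61, 6.68, 4.15, 6.08 and 6.61 FPKM with Ang II (difference 1.15, SE 0.19, limma adjusted p = 0.394). Fmr1, the RNA-binding translational regulator FMRP (chrX:68678541-68717963, plus strand), was at 3.43, 3.41, 3.52, 5.11 and 5.59 FPKM with saline and 7.47, 5.97, 8.80, 9.30 and 10.1 FPKM with Ang II (difference 0.84, SE 0.18). The tetraspanin Tspan11 differed by 0.68, the actin-binding Cotl1 by 0.68 and the membrane protein Tmem219 by 0.91, each without overlap. Itpr1, the inositol trisphosphate receptor that releases calcium below the angiotensin receptor, was at 5.41, 4.33, 5.17, 4.67 and 4.79 FPKM with saline and 8.14, 8.06, 11.7, 5.63 and 7.79 FPKM with Ang II (difference 0.63, SE 0.16). Cybb, the catalytic subunit of the phagocyte NADPH oxidase, was at 1.82, 1.39, 2.28, 2.58 and 3.08 FPKM with saline and 3.58, 4.72, 3.78, 3.79 and 3.33 FPKM with Ang II (difference 0.60, SE 0.17). Cybb is also expressed by macrophages. Their marker sum was likewise higher with Ang II, and its part in the Cybb difference was not tested.

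**Figure D3:**
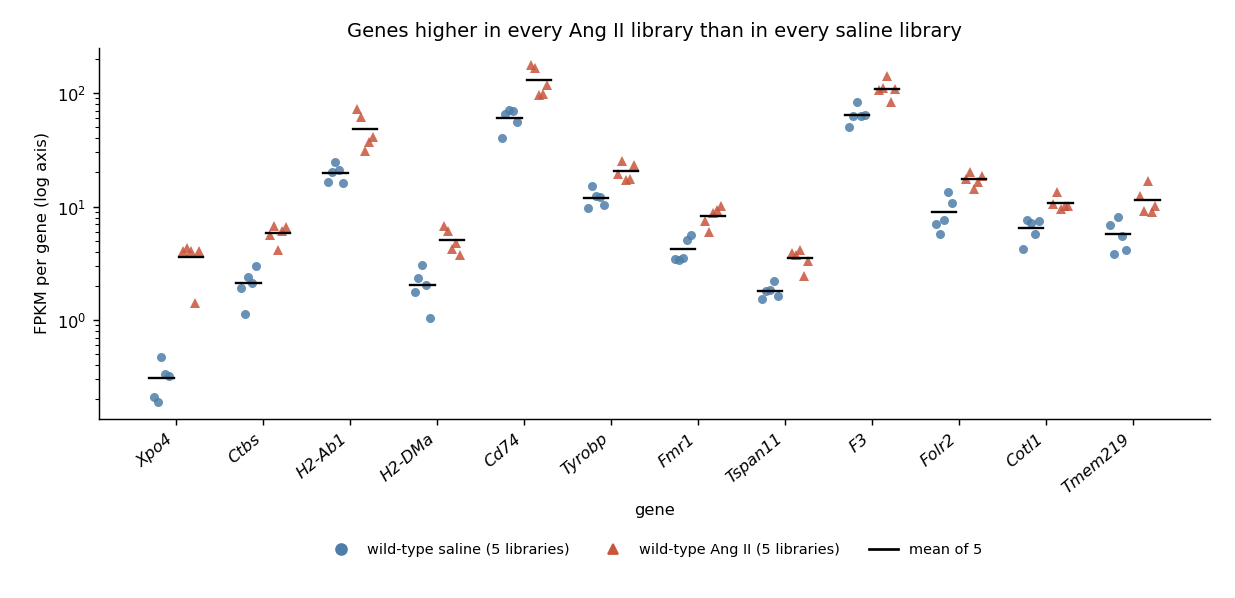
FPKM of 12 genes in 5 saline (circles) and 5 Ang II (triangles) libraries, log axis, with the mean of 5 as a bar. For each gene the lowest Ang II library lies above the highest saline library; Xpo4 has the widest separation and 1 Ang II library (WTAngII580) below the other 4.

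Among genes lower in all 5 Ang II libraries, Hspa5 had the highest level. It encodes BiP, the chaperone of the endoplasmic reticulum and the classical target of the unfolded protein response, and was at 171, 154, 165, 129 and 105 FPKM with saline. With Ang II it was at 91.6, 77.2, 90.9, 99.1 and 90.2 FPKM, close together and just below the lowest saline library, WTNS_550 (means 144 ± 27.4 and 89.8 ± 7.90, SD, n = 5 each). The difference was -0.66 (SE 0.15, limma adjusted p = 0.815). Of the other 23 tested genes of the unfolded protein response, 11 had positive and 12 negative differences (median -0.02), and none was without overlap. The element through which the response is known to act is shown for Hspa5 as a stretch of 30 bases (chr2:34772020-34772049, plus strand, GRCm38.p6, RefSeq), with the match to CCAAT and CCACG with 9 bases between them in capitals, 65 bases before the start.
Hspa5: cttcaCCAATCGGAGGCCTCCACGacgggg
These letters occur, on either strand, in 0.113% of the 32851 windows (37 windows), and their occupancy was not measured.

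Bcl6, a transcriptional repressor of inflammatory and immune genes, had the tightest values. It was at 23, 24.5, 23.5, 26.5 and 23.9 FPKM with saline and 17.1, 19.1, 16.5, 18.9 and 19.2 FPKM with Ang II (difference -0.40, SE 0.09). Cluh, an RNA-binding protein for mRNAs of mitochondrial proteins, was at 4.59, 6.57, 4.82, 1.69 and 2.38 FPKM with saline and 0.350, 0.790, 0.425, 1.36 and 1.37 FPKM with Ang II (difference -1.37, SE 0.30). Prdm16, the transcriptional regulator of brown fat and arterial endothelium, was at 3.11, 2.27, 1.77, 2.35 and 1.43 FPKM with saline and 0.554, 0.762, 0.865, 1.37 and 0.71 FPKM with Ang II (difference -0.77, SE 0.18). Prdm16 moved in the direction of the brown adipocyte markers, described below. It was named because its libraries did not overlap, and the part of brown fat in its difference was not tested. Slc25a22, a mitochondrial glutamate carrier, differed by -0.91 (SE 0.24), Rbm7, an RNA-binding subunit of the nuclear exosome adaptor, by -0.86 (SE 0.22), Retreg1, an endoplasmic reticulum autophagy receptor, by -0.75 (SE 0.21), and Zfp180, a zinc finger protein, by -1.10 (SE 0.32). Bphl, a hydrolase, and Ggnbp1 completed the 12 with differences of -0.64 and -0.62.

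**Figure D4:**
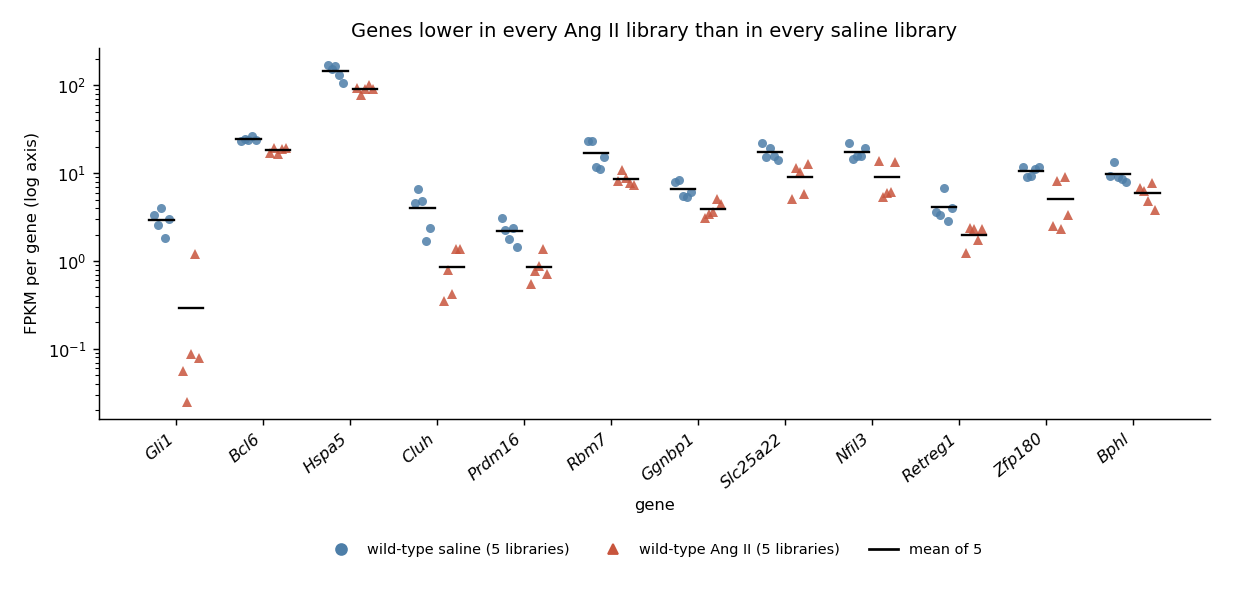
FPKM of 12 genes in 5 saline (circles) and 5 Ang II (triangles) libraries, log axis, with the mean of 5 as a bar. Gli1 has 4 Ang II libraries between 0.0251 and 0.0873 FPKM and library WTAngII580 at 1.2 FPKM, and Hspa5 has its 5 Ang II libraries between 77.2 and 99.1 FPKM.

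Genes of the vessel wall were examined next. Among contractile smooth muscle genes 23 of 29 had positive differences, none at an unadjusted p under 0.05 (median 0.253). Acta2 differed by 0.25 (SE 0.30), the actin-binding Tagln by 0.28 (SE 0.23) and smooth muscle myosin Myh11 by 0.24 (SE 0.28). With brown adipocyte markers as a covariate the median of the list was -0.0640, and with 3 marker covariates it was -0.0875, so its sign depended on these covariates (brown adipocyte, skeletal muscle and sympathetic neuron marker levels). Acta2 and Tagln changed sign between fits as well, with lowest values of -0.185 and -0.0587. The receptors and calcium entry channels of vasoconstriction had 19 of 25 positive differences (median 0.260, between 0.159 and 0.406 over the fits). An unadjusted p under 0.05 was found for 3 (against 3.43% of all tested genes): Itpr1, given above, the plasma membrane calcium pump Atp2b4 (0.66, SE 0.17) and the calcium channel Cacna1c (0.52, SE 0.20).

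The angiotensin receptors were low and did not separate. Agtr1a was at 1.68, 1.88, 11.2, 3.25 and 3.72 FPKM with saline and 1.45, 3.81, 2.09, 3.99 and 2.999 FPKM with Ang II (difference -0.27, SE 0.40). Agtr1b was at 1.55, 2.48, 1.36, 1.57 and 1.56 FPKM with saline and 3.58, 6.25, 2.88, 0.745 and 2.18 FPKM with Ang II (difference 0.47, SE 0.33). Converting enzyme, Ace, was at 132 ± 16.8 FPKM with saline and 138 ± 27.0 FPKM with Ang II. None of the 12 tested genes of the renin-angiotensin system had an unadjusted p under 0.05, and the sign of their median (0.203) turned to -0.0109 without library WTNS_373. Known angiotensin II and stretch targets of the wall had 23 of 31 positive differences and a median of 0.124, which also turned negative with covariates or without library WTNS_373. Named after their values were seen, Thbs1, thrombospondin, differed by 0.76 (SE 0.26), Rgs5, a regulator of G protein signalling in mural cells, by 0.64 (SE 0.24), and Timp1, a protease inhibitor, by 0.45 (SE 0.12).

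Matrix genes leaned upward with wide spread. Elastic fibre genes had 17 of 18 positive differences (median 0.349, between 0.128 and 0.4996 over the fits). Of these, 5 had an unadjusted p under 0.05, against 3.43% of all tested genes, and no gene of the list was without overlap. The 1 negative difference, -1.51, was the largest of the list in size. Eln, elastin, was at 186, 181, 264, 323 and 195 FPKM with saline and 701, 262, 369.5, 322 and 488 FPKM with Ang II (difference 0.85, SE 0.28). Libraries WTAng_II536 and WTAngII580 lay inside the saline range. The microfibril genes Fbn1, Mfap5 and Fbln2 and the elastin-associated Emilin1, named after their values were seen, differed by 0.96, 0.49, 0.49 and 1.11. Collagens and their processing enzymes had 24 of 31 positive differences, 5 at an unadjusted p under 0.05, against 3.43% of all tested genes (median 0.294, 0.0275 with the brown adipocyte covariate). Their differences ran from -1.53 to 1.76. Col3a1, the main collagen of the arterial wall beside Col1a1, was at 261, 250.2, 638, 524 and 466 FPKM with saline and 873, 826, 527, 491 and 777 FPKM with Ang II (difference 0.77, SE 0.30). Col1a2 shows how some genes scattered within a group: it was at 20.5, 313, 21.9, 21.3 and 573 FPKM with saline and 39.98, 35.1, 28.8, 30.4 and 883 FPKM with Ang II. In all, 480 tested genes (3.82%) spanned more than 3 log2 units within a group.

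Clock genes differed in both directions. The circadian clock is a feedback loop of transcription factors, and output genes such as Dbp and Nr1d1 follow it with large daily swings. The hour at which tissue was taken is not in the labels, and a difference in that hour and an effect of Ang II cannot be told apart. Dbp was at 6.57, 5.99, 14, 8.49 and 5.42 FPKM with saline and 20.4, 47.6, 60.9, 35.2 and 13.6 FPKM with Ang II (difference 1.89, SE 0.40, unadjusted p = 0.000691). Nr1d1, the repressor REV-ERB alpha, was at 22.8, 19.96, 26.9, 31.9 and 2.25 FPKM with saline and 55.4, 64.5, 157, 43.9 and 42.8 FPKM with Ang II (difference 1.92, SE 0.62). Only Dbp overlapped of these 2, through libraries WTNS_523 and WTAngII581. Nfil3, which opposes Dbp at the same promoter sites, was at 21.8, 14.6, 15.7, 15.6 and 19.5 FPKM with saline and 13.8, 5.37, 5.96, 6.07 and 13.5 FPKM with Ang II (difference -0.98, SE 0.27, no overlap), and the repressor Cry1 differed by -0.67 (SE 0.27). The list of 19 tested clock genes had 12 positive and 7 negative differences, 5 and 2 of them at an unadjusted p under 0.05. Over all tested genes these shares were 3.43% and 1.89%. The median of the list, 0.274, was 0.0294 without libraries WTNS_369 and WTNS_373.

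Glucocorticoid-responsive genes, which also follow the time of day, pointed down in 17 of 22 tested members (median -0.360, between -0.380 and -0.134 over the fits). Of these, 4 had an unadjusted p under 0.05, against 1.89% of all tested genes. Those 4 were Pdk4, a kinase that spares glucose (-0.92, SE 0.35), the cell cycle inhibitor Cdkn1a (-0.68, SE 0.27), Ddit4, an inhibitor of mTOR signalling (-0.64, SE 0.19), and the transcription factor Klf15 (-0.35, SE 0.15). The receptor itself, Nr3c1, went the other way: it was at 5.61, 2.19, 6.91, 3.13 and 3.71 FPKM with saline and 17.7, 6.65, 17.7, 13.6 and 6.42 FPKM with Ang II (difference 1.3, SE 0.35). Fkbp5, another target, differed by 0.55 (SE 0.30), against the direction of the list.

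Genes of oxidative metabolism were lower on average together with brown adipocyte genes. Negative differences were seen in 39 of 42 nuclear genes of the respiratory chain (median -0.341), 12 of 13 mitochondrially encoded genes (-0.402), 26 of 29 fatty acid oxidation genes (-0.461), 18 of 19 tricarboxylic acid cycle genes (-0.475) and 22 of 25 lipid synthesis genes (-0.248), with at most 3 members of a list at an unadjusted p under 0.05. The 11 brown adipocyte markers had a median of -1.03. Ucp1, the uncoupling protein that defines brown fat, was at 913, 1765, 257, 338 and 942 FPKM with saline and 32.4, 408, 276, 1352 and 158 FPKM with Ang II (difference -1.47, SE 0.90). The ranges overlapped, with library WTAngII580 second only to library WTNS_373. With the brown adipocyte covariate the medians turned to 0.103 for the respiratory chain, 0.186 for fatty acid oxidation, 0.110 for the tricarboxylic acid cycle and 0.0763 for the mitochondrially encoded genes, while lipid synthesis stayed negative at -0.124 (0.159 with 3 marker covariates). Without libraries WTAngII580 and WTAngII581 the 5 medians were -0.608, -0.884, -0.726, -0.606 and -0.449, in the same order. The brown adipocyte covariate was not independent of all these lists. Its markers include Cox7a1 and Cox8b of the respiratory chain, Cpt1b, Slc27a2 and Ppargc1a of fatty acid oxidation, and Elovl3 of lipid synthesis. The tricarboxylic acid cycle and mitochondrially encoded lists share no member with it. Skeletal muscle and sympathetic neuron markers had medians of -0.880 and -1.01, without any of the 12 and 14 tested members at an unadjusted p under 0.05. White adipocyte markers had a median of -0.113, whose sign was not stable: it was 0.355 with the brown adipocyte covariate, 0.335 with 3 marker covariates, 0.183 without libraries WTNS_369 and WTNS_373, 0.101 without WTNS_373 alone and 0.0284 without WTAng_II519.

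Among single transcripts, 1 large exchange within a gene fell just outside the threshold. Of 20718 tested transcripts none passed the limma test (smallest adjusted p 0.0548), 1068 had an unadjusted p under 0.05 (5.15%), and the libraries did not overlap for 123 higher (0.594%) and 85 lower ones (0.41%). Il11ra1 encodes the receptor subunit for interleukin 11, a cytokine of fibroblasts and smooth muscle. Il11ra1-201 (chr4:41760196-41769474, plus strand) was at 53.2, 50.5, 38.1, 61.2 and 58.4 FPKM with saline and 5.44, 5.06, 5.51, 7.86 and 16.6 FPKM with Ang II (difference -2.66, SE 0.29, adjusted p = 0.0548). Il11ra1-204 (chr4:41762309-41769474) was at 9.05, 7.93, 15.5, 15.0 and 11.3 FPKM with saline and 85.7, 73.1, 94, 16.0 and 60.0 FPKM with Ang II (difference 2.22, SE 0.44). Neither transcript overlapped between groups, though for Il11ra1-204 library WTAngII580 was next to the saline range. In group means the first went from 60.1% to 8.63% of the listed Il11ra1 signal and the second from 13.5% to 70.2%. The gene sum differed by -0.02 (SE 0.32), but not evenly: it was 32.4 FPKM in library WTAngII580 and 98.1 to 122 FPKM in the other Ang II libraries. With saline it was 72.3 to 99.4 FPKM. In library WTAngII580 both transcripts were low, so a switch at an unchanged gene level was not seen there. Both transcripts encode the same coding region of 1296 bases and differ in the first exon. Il11ra1-201 passed the threshold in 8 of 22 fits. Near-identical copies (Il11ra2, Gm13305 and Gm13306) are also listed, so reads may have been split among them, and the test of transcript shares in Il11ra1 gave an adjusted p of 0.0752.

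The start of Il11ra1-204 is shown because it lies within the first intron of Il11ra1-201. RefSeq gives starts at 41760443 and 41762310. The first lies downstream of the annotated start of Il11ra1-201 (41760196) and close to that of Il11ra1-202 (41760454). The second lies at the start of Il11ra1-204. The bases before the second are printed up to the annotated exon (chr4:41762060-41762308, plus strand, GRCm38.p6), with a GC box GGGCGG in capitals 15 bases before the start.
Il11ra1: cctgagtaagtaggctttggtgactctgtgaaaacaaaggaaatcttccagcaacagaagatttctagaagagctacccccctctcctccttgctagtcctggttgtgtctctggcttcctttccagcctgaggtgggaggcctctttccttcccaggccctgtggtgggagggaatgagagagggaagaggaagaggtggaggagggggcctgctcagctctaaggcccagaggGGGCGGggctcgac
The GC box letters occur in 32.7% of all windows on either strand.

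Other transcripts varied with or without their gene. Pdcd4-203, of the translation inhibitor PDCD4, was at 0 in all 5 saline libraries and at 2.94, 5.39, 2.92, 2.14 and 1.84 FPKM with Ang II (difference 1.96, SE 0.23, adjusted p = 0.0548; past the threshold in 7 of 21 fits). Fmr1-202 was at 0.571, 1.87, 0.678, 1.10 and 2.06 FPKM with saline and 7.14, 4.05, 6.73, 7.82 and 8.29 FPKM with Ang II, and went from 29.8% to 81.7% of the Fmr1 signal. Ccn5-202, a noncoding transcript of the matricellular gene Ccn5, differed by 1.89 (SE 0.29), and Rrbp1-202, of the ribosome-binding protein of the endoplasmic reticulum, by -1.28 (SE 0.26).

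Of 4587 genes with at least 2 tested transcripts, 19 (0.414%) passed the limma diffSplice F test of transcript shares at an adjusted p under 0.05. This test treats the transcripts of a gene as independent values, although they come from the same 10 libraries. It also pools the variance over the transcripts of a gene, so a transcript of wide spread can get a small p. The p-values of this test can therefore be too small. Acsl1-203, at 0 to 127 FPKM within saline, had an unadjusted p of 0.0184 between the groups (limma) and of 8.92e-07 against the other Acsl1 transcripts (diffSplice). The smallest p belonged to Stk16, a kinase of the Golgi (adjusted p = 0.000567): Stk16-207, a transcript without a coding region, was at 0 in the 5 saline libraries and at 0, 12.4, 9.10, 11 and 11.5 FPKM with Ang II. In Slc38a7, a lysosomal amino acid transporter (adjusted p = 0.00211), Slc38a7-201 was at 6.18, 4.32, 5.04, 7.71 and 0 FPKM with saline and at most 0.00866 FPKM with Ang II. Its counterpart Slc38a7-204 was at 0 in 4 saline libraries and at 6.65 FPKM in library WTNS_550, and at 6.05, 7.12, 6.56, 5.54 and 6.87 FPKM with Ang II. These 2 transcripts have 12 exons and 1389 coding bases each and differ at the end of the first exon and at the 3′ end. Their lengths are 3333 and 3315 bases, so few bases tell their reads apart. Library WTNS_550 had the Ang II pattern. Chmp2a-201, of a membrane-remodelling ESCRT subunit (adjusted p = 0.011), was at 49.0, 56.9, 51.5, 0.0161 and 27.8 FPKM with saline and at 0.0141 to 0.169 FPKM with Ang II, with library WTNS_547 at the Ang II level.

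Exchanges between coding transcripts were seen in several of the 19. The shares given are those of group means, and single libraries could depart from them. Prkab1, a regulatory subunit of AMP-activated protein kinase, had Prkab1-201 at 3.87, 3.14, 3.19, 3.46 and 3.88 FPKM with saline and 0.708, 1.23, 0.974, 1.45 and 0.497 FPKM with Ang II, and its share went from 27.0% to 7.69% while Prkab1-202 went from 20.9% to 55.1%. Both encode 810 coding bases. In Washc3, a subunit of the endosomal WASH complex, Washc3-201 went from 64.8% to 30.2% and Washc3-203 from 33.3% to 65.2%. Polr3c, a subunit of RNA polymerase III, moved from Polr3c-206 (58.1% to 8.24%) to Polr3c-201 (21.9% to 69.1%), and Ubr4, a ubiquitin ligase, from Ubr4-212 (48.5% to 6.16%) to Ubr4-201 (18.1% to 74.4%). Saline library WTNS_369 already held 7.21 FPKM of Polr3c-201, within the Ang II values of 5.02 to 8.21 FPKM. In Bdh2, a hydroxybutyrate dehydrogenase, Bdh2-201 went from 19.4% to 59.1%, though saline library WTNS_523 (1.83 FPKM) was above Ang II library WTAngII580 (1.73 FPKM). The remaining 11 genes were Stau1, Pdcd6ip, Acsl1, Gtf2h5, Rbm3, Numbl, Itprid2, Pomt1, Ramp2, Aldoa and Tbc1d14. In Tbc1d14, of a Rab GTPase-activating protein family, Tbc1d14-210 went from 72.6% to 13.2% and Tbc1d14-201 from 0% to 51.1%. In Pomt1, a protein mannosyltransferase, Pomt1-204, which retains an intron, went from 43.5% to 5.47% and Pomt1-201 from 31.2% to 62.7%. In Stau1, a double-stranded RNA-binding protein, Stau1-204 and Stau1-208 went from 40.6% and 39.8% to 18.1% and 8.48%, and Stau1-202 and Stau1-203 from 10.1% and 0.0194% to 30.4% and 24.01%. In Itprid2, Itprid2-205, a transcript without a coding region, went from 2.52% to 39.8% at the cost of Itprid2-202, in Numbl, Numbl-203, which retains an intron, from 32.1% to 66.3%, and in Ramp2, the adrenomedullin receptor partner, Ramp2-201 from 17.3% to 0%. Ramp2-201 was also at 0 in saline library WTNS_547. Switching between 0 and a clear level also happened within groups: 2305 tested transcripts were at 0 in one library and above 1 FPKM in another library of the same group. The share test also depended on the level: without a filter 42 genes passed, and at a mean of at least 5 FPKM none did.

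**Figure D5:**
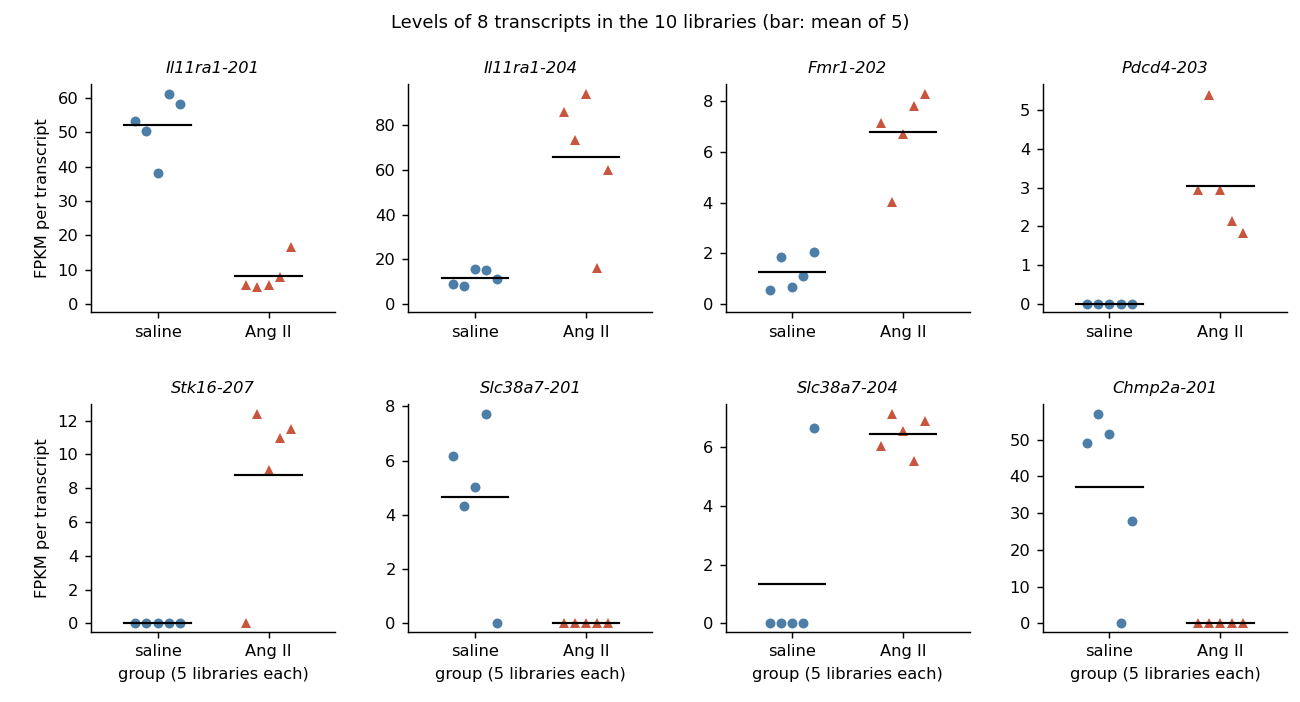
FPKM of 8 transcripts in 5 saline (circles) and 5 Ang II (triangles) libraries, linear axes, with the mean of 5 as a bar. Il11ra1-201 is low and Il11ra1-204 high with Ang II except in library WTAngII580 for the latter, and in Slc38a7 and Chmp2a 1 saline library lies at the Ang II level.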

How the data were processed

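Abdominal aorta RNA of 10 WT libraries was analysed. RNA was extracted with TRIzol and 1 µg per library was prepared with a NEBNext Ultra kit, per the labels' protocols. bcl2fastq, FastQC, fastp and the mm10 build are named in the submitters' processing notes; no source used here names the aligner, assembler or quantifier. Per transcript FPKM were deposited, one table per library; every listed transcript averaged at least 0.5 FPKM in 1 of the groups. FPKM times length fell on whole multiples of a step in each library (98.9% to 99.1% of values below 50 reads within 0.05 reads). This gives the depths and the reads used for voom. Whether reads were assigned to the right transcript or gene copy cannot be read from these steps. Deposited FPKM values of Ensembl transcripts were summed per gene with GENCODE M21 (GRCm38); 36 were not in it, and 17119 assembled (MERGE) transcripts, 12.2% to 15.8% of the FPKM, could not be assigned and were left out of the sums.

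Genes and transcripts with a mean of at least 1 FPKM were tested on log2(FPKM + 1) with limma 3.58.1 in R 4.3.3 (trended, robust variance; Benjamini-Hochberg 0.05), Ang II against saline, and transcript shares with limma's diffSplice. Differences are on that scale, which understates changes of low genes. Non-overlap means that all 5 libraries of one group lie on one side of the other 5. Tables were made with Python 3.11.15, pandas 2.3.3 and numpy 2.4.6, and figures with matplotlib 3.10.9. The scripts were tested on simulated data. Alternatives covered pseudocount, filter, scaling, voom, sample weights, marker covariates and left-out libraries.

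The members, the 41 gene lists and 24 marker lists were chosen with earlier results of these data known. As no more than 5 features passed in a direction, the text names the 12 genes and up to 8 transcripts per direction with the smallest p among those without overlap and with at least 2 FPKM in the higher group, and from each list up to 4 members without overlap or the 2 with the highest mean; unnamed models, pseudogenes and immune receptor segments were passed over. Other list members were named after their values were seen. One result on a single gene is not reported here.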

Additional observations from a re-analysis of the deposited data

Results flagged for a closer look

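Of 50 groups of 5 libraries examined for a library that stands apart from the other 4, 4 had one, and chance alone gives about 1 in 20. Library WTAngII580 stood apart for Xpo4 (1.43 FPKM, below the other 4) and for Gli1 (1.2 FPKM, above the other 4), in both cases toward the saline level; its correlation with the saline libraries (0.917) was also higher than with its own group (0.899), as was that of libraries WTNS_547 and WTNS_523 with the Ang II group. Cotl1 was highest in library WTAng_II536 (13.5 FPKM), and Bphl was highest in library WTNS_373 (13.5 FPKM). Among the assembled transcripts that carry no gene name and enter no comparison, 105 were higher in all 5 Ang II libraries and 68 were lower (0.613% and 0.397% of 17119).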

How the results depend on the processing

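No paired analysis was possible because the library numbers differ between the saline and Ang II groups. Leaving out 1 library at a time gave 0 to 3 higher and 0 to 1 lower genes past the threshold, 0 to 3 higher and 0 to 4 lower transcripts, 11 to 29 genes with changed transcript shares, and 112 to 277 higher and 61 to 165 lower genes without overlap, which fewer libraries raise by construction. The extremes for genes came without library WTAngII580 (Gli1, Xpo4 and Pitpna were then among those that passed). Sample quality weights gave 1 higher and 1 lower gene (Xpo4 and Gli1). Without libraries WTAngII580 and WTAngII581 there were 1 higher and 3 lower genes (Xpo4; Cggbp1, Chd2 and Gli1), 9 higher and 10 lower transcripts, 31 genes with changed shares, and 548 higher and 300 lower genes without overlap. Without libraries WTNS_369 and WTNS_373 there were 5 higher and 2 lower transcripts, 12 genes with changed shares, and 221 higher and 240 lower genes without overlap. For transcripts, a pseudocount of 0.5, no filter, quantile normalization and median-of-ratios scaling each gave 1 higher and 1 lower (Pdcd4-203 and Il11ra1-201), a mean of at least 5 FPKM gave 1 lower, and weights gave 2 higher and 1 lower. Changed shares numbered 42 without a filter and 0 at a mean of at least 5 FPKM, where fewer are tested and 45 higher genes had no overlap. The circadian clock median was 0.0294 without libraries WTNS_369 and WTNS_373. With 3 marker covariates the respiratory chain median was 0.181, and the list shares Cox7a1 and Cox8b with the brown adipocyte covariate. The cause of the change was not tested. The brown adipocyte median was 0.0306 and 0.0831 with 1 and 3 covariates, near 0 by construction, since its markers form a covariate. For the 41 genes and transcripts named by p or, for Dapk1, as the targeted gene, 857 values under an alternative stayed on the same side of the threshold and 27 moved past it, and none changed sign. All but Dapk1 were named for libraries that do not overlap, so leaving out libraries or changing the pseudocount cannot turn their sign. Their constant sign thus follows in part from how they were named. Of 103 other named list members, 58 had differences that changed sign between fits, Acta2 (-0.185 to 0.483) and Ucp1 (-2.10 to 0.231, itself a covariate marker) among them; of list medians, 1307 moved by less than the spread between libraries and 35 by more. Genes of low level, with few reads behind a value, are limited by depth; for genes absent from the WT tables nothing can be said.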
